A study of Arabidopsis thaliana with 8 samples.

Results

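The 4 auxin receptor genes described here are TIR1 (AT3G62980), AFB1 (AT4G03190), AFB2 (AT3G26810) and AFB3 (AT1G12820) of Arabidopsis thaliana. They were taken by locus identifier, and all 4 were among the 22546 loci listed in at least 1 of the count files. They were followed in leaves of dcl1, a mutant of DICER-LIKE 1, and of wild type. The allele of dcl1 is not given in the sources used here. Per the labels, plants of both genotypes grew at 25 °C by day and 18 °C by night with 16 h of light and had no specific treatment. Messenger RNA was purified with magnetic beads from total leaf RNA and made into libraries with either of 2 adapter types. In the high definition (HD) type the ligated ends are random in sequence, and in the standard Illumina type they are fixed. The groups were dcl1 with HD adapters, wild type with HD adapters, dcl1 with standard adapters and wild type with standard adapters, with 2 libraries each. The 8 libraries came from 4 RNA samples, since each sample was made into both kinds of library. Nothing in the labels says that the RNA samples of a genotype came from separate plants, so the spread behind each p-value may be technical. The tests estimated that spread with information shared across loci. Those within an adapter used the spread among all 8 libraries, in which each RNA sample enters 2 times.

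TIR1 and its relatives, the AUXIN SIGNALING F-BOX (AFB) proteins, are receptors of auxin. In the nuclear pathway the receptor is the substrate-binding subunit of an SCF ubiquitin ligase. There auxin acts as a glue between the receptor and an Aux/IAA repressor. The repressor is then ubiquitinated and destroyed, which frees AUXIN RESPONSE FACTORs to act on their target genes. The microRNA miR393 pairs with receptor messenger RNAs and directs their cleavage by ARGONAUTE 1, and small interfering RNAs are then made from the cleaved transcripts. In leaves this module is known for roles in leaf shape and in defence. DICER-LIKE 1 cuts miR393, like nearly all plant microRNAs, from its precursor.

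The microRNA and its sites are shown because the receptor messenger RNAs are known targets of miR393. Mature miR393 was not measured in these messenger RNA libraries, so how far it was lost in the dcl1 leaves is not known here. RefSeq annotates 2 precursor genes on TAIR10.1, MIR393A (AT2G39885, chr2:16652101-16652233, plus strand) and MIR393B (AT3G55734, chr3:20691647-20691806, plus strand). Neither precursor was listed in any of the count files. Both give the same mature 5p strand of 22 bases, in which capitals mark the seed, bases 2 to 8. The 3p strands, with their seeds also in capitals, have seeds that differ in the last base.
miR393a-5p: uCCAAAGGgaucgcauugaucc
miR393b-5p: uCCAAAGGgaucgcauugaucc
miR393a-3p: aUCAUGCUaucucuuuggauu
miR393b-3p: aUCAUGCGaucucuuuggauu

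The best match to the 5p strand in each receptor transcript lay in the coding sequence, in the last exon. It was found at chr3:23273727-23273748 (minus strand, exon 3 of 3) in TIR1, at chr4:1405341-1405362 (minus, exon 3 of 3) in AFB1, at chr3:9870237-9870258 (plus, exon 3 of 3) in AFB2 and at chr1:4369085-4369106 (minus, exon 4 of 4) in AFB3. Its first base was coding base 1516 of 1785 in TIR1, 1504 of 1758 in AFB1, 1501 of 1728 in AFB2 and 1507 of 1734 in AFB3. The fifth sequence is the best match in BHLH77 (AT3G23690), a transcription factor gene named in earlier work as a further miR393 target, at chr3:8530587-8530608 (minus, exon 1 of 7). Each site is written 5′ to 3′ as DNA, and capitals mark bases that do not form a Watson-Crick pair with the microRNA, G:U pairs included.
TIR1: gAGAcaatgcgatccctttgga
AFB1: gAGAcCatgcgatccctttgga
AFB2: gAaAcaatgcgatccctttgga
AFB3: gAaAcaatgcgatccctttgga
BHLH77: ggGtcaGAgcgatccctttggC

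AFB2 and AFB3 carried the same site, with mismatches opposite microRNA bases 19 and 21, counted from the microRNA's 5′ end. TIR1 had the same 2 mismatches and a G:U pair at base 20. AFB1 had the pairs of TIR1 and 1 further mismatch, at base 17. In all 4 receptors microRNA bases 1 to 16 were fully paired, and these include the seed and the centre of the duplex, where ARGONAUTE cuts. With a penalty of 1 for a mismatch and 0.5 for a G:U pair, the scores were 2.0 for AFB2 and AFB3, 2.5 for TIR1 and 3.5 for AFB1. Among 21651 protein-coding loci searched in the same way on the transcript strand, 8 scored 4 or less, and the 4 receptors and BHLH77 (3.0) were the first 5 of them. The best windows of AFB4 and AFB5, the other auxin receptors of the family, scored 6.5 and 7.0. That of COI1, the jasmonate receptor of the same F-box family, scored 7.0. These matches are letters in the annotated transcripts and were not tested for cleavage.

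The coding stretch around the site shows how the receptors differ beside it. Each line gives 72 bases with the site in capitals and 25 bases on either side, read along the transcript, at chr3:23273702-23273773 (minus) for TIR1, chr4:1405316-1405387 (minus) for AFB1, chr3:9870212-9870283 (plus) for AFB2 and chr1:4369060-4369131 (minus) for AFB3.
TIR1: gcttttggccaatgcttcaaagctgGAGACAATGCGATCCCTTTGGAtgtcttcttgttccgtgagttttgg
AFB1: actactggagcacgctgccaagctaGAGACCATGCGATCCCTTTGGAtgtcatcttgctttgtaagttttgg
AFB2: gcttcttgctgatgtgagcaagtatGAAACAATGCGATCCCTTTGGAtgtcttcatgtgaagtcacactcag
AFB3: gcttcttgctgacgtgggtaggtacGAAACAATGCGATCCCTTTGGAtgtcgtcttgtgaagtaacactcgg

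Over the whole coding sequence AFB2 and AFB3 were 81.8% identical and TIR1 and AFB1 68.4%. The other pairs among the 4 receptors were 59.6% to 61.7% identical. None of the 4 genes shared a run of 50 bases with any other place in the genome, so a read of that length matches 1 receptor gene alone. The genes lie at chr3:23273065-23276630 (TIR1, minus), chr4:1404887-1407402 (AFB1, minus; RefSeq lists it under the symbol GRH1), chr3:9867652-9870782 (AFB2, plus) and chr1:4368760-4371298 (AFB3, minus). Genes on the opposite strand overlap 20.4% of the exon bases of AFB1 and 31.4% of those of AFB3. Whether the counting used strand is not given in the sources used here, so reads of these overlaps cannot be told apart. TIR1 and AFB2 have no such overlap.

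Libraries held 15772958 to 45929383 counts over all listed loci, and the receptor genes had between 297 counts (AFB3) and 4391 counts (TIR1) in a library. Ribosomal RNA loci took 17.3% to 28.7% of the counts of a library. With standard adapters the share was 28.7% and 20.9% in dcl1, against 17.3% and 19.5% in wild type. With HD adapters it was 27.3% and 20.5% in dcl1, against 26.2% and 26.9% in wild type. Each count was scaled by library size to a normalised read count (CPM) with TMM library factors. The leaf label fitted the markers: 3 leaf genes (RBCS1A, RBCS1B and LHCB1.3) summed to between 37220 and 51139 CPM in every library. The listed root, seed, flower and shoot meristem markers summed to at most 3.16, 0.280, 0.497 and 0.587 CPM. WOX5, WUS and CLV3, which define the root and shoot stem cell niches, were listed in no file. In leaf RNA, fewer cells of a type and less RNA per cell cannot be told apart.

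None of the 4 receptor transcripts differed between dcl1 and wild type beyond the replicate spread, with either adapter or on summed counts. The count of called receptors was 0 of 4 in each of these 3 comparisons by the edgeR quasi-likelihood F test, two-sided, at an adjusted p under 0.05. It was also 0 of 4 at an unadjusted p under 0.05, and 0 of 4 by DESeq2. Of all loci tested, 4.33% were called with HD adapters, 4.23% with standard adapters and 8.85% on the summed counts of each RNA sample. In 1 direction, 2.26% of loci were called lower with HD adapters and 2.36% with standard adapters, and on summed counts 4.3% were called higher and 4.55% lower. At those shares, a set of 4 genes with no call does not stand apart from the rest of the transcriptome. TIR1 had the highest point estimate of the 4 on summed counts, 1.14-fold in dcl1 over wild type with a 95% interval of 0.914 to 1.41.

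TIR1, the receptor by which the family was found, had 94.7 and 107.5 CPM in the dcl1 HD libraries, against 76.2 and 93.5 CPM in the wild-type HD libraries. With standard adapters it had 101.2 and 95.4 CPM in dcl1, against 83.0 and 94.2 CPM in wild type. Every dcl1 library thus lay above every wild-type library, though the lowest dcl1 library and the highest wild-type library were nearly level. The same held for 7.64% of all loci tested. Within an adapter, both dcl1 libraries lay above both wild-type ones at 22.5% of loci with HD and 22.9% with standard adapters, so such an order is common in these data. The log2 fold change of dcl1 over wild type was 0.25 with HD adapters (SE 0.17, edgeR adjusted p = 0.519) and 0.15 with standard adapters (SE 0.17, adjusted p = 0.773). On summed counts, at 97.0 and 100.3 CPM in dcl1 against 79.5 and 94.1 CPM in wild type, it was 0.18 (SE 0.15, edgeR adjusted p = 0.524). The fold of dcl1 over wild type stayed positive in every alternative run for these 3 comparisons, including each omission of a library.

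AFB1, whose protein is known for fast auxin responses in roots, had 19.5 and 28.1 CPM in the dcl1 HD libraries, against 29.4 and 23.7 CPM in the wild-type HD libraries. In the standard libraries it had 23.5 and 23.7 CPM in dcl1, against 24.6 and 20.9 CPM in wild type. The groups overlapped with both adapters, and the spread was widest between the dcl1 HD libraries. The log2 fold change was -0.16 with HD adapters (SE 0.24, edgeR adjusted p = 0.815), 0.05 with standard adapters (SE 0.24, adjusted p = 0.956) and -0.09 on summed counts (SE 0.18, adjusted p = 0.840). The overlapping gene AT4G03180, on the other strand, averaged 4.06 ± 0.76 CPM in dcl1 and 4.82 ± 0.38 CPM in wild type with HD adapters. With standard adapters it averaged 9.82 ± 4.73 CPM in dcl1 and 3.06 ± 1.13 CPM in wild type (SD, n = 2 each). Its part in the AFB1 values was not tested.

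AFB2, a receptor that acts redundantly with TIR1, had 37.4 and 27.4 CPM in the dcl1 HD libraries, against 23.7 and 34.2 CPM in the wild-type HD libraries. The values with standard adapters were 34.1 and 31.5 CPM in dcl1, against 36.6 and 41.7 CPM in wild type. The groups overlapped with HD adapters, while both dcl1 libraries were lower than both wild-type libraries with standard adapters, as at 24.5% of all loci tested. The log2 fold change had opposite signs, 0.16 with HD adapters (SE 0.22, edgeR adjusted p = 0.801) and -0.26 with standard adapters (SE 0.22, adjusted p = 0.664). The difference between the 2, tested as an interaction, was 0.42 (unadjusted p = 0.199). On summed counts the fold was -0.04 (SE 0.17, edgeR adjusted p = 0.939).

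AFB3, known in roots for its part in the response to nitrate, had 30.2 and 18.0 CPM in the dcl1 HD libraries, against 25.6 and 22.3 CPM in the wild-type HD libraries. In standard libraries AFB3 had 41.1 and 23.6 CPM in dcl1, against 30.3 and 28.6 CPM in wild type. The dcl1 libraries lay on both sides of the wild-type ones, and replicate 1 was the higher dcl1 library with both adapters. The log2 fold change was 0.02 with HD adapters (SE 0.27, edgeR adjusted p = 0.986), 0.13 with standard adapters (SE 0.27, adjusted p = 0.891) and 0.05 on summed counts (SE 0.19, adjusted p = 0.922). AFB3 varied most of the 4 across libraries, by 2.28-fold between its lowest and highest value, against 1.41-fold for TIR1.

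**Figure D1:**
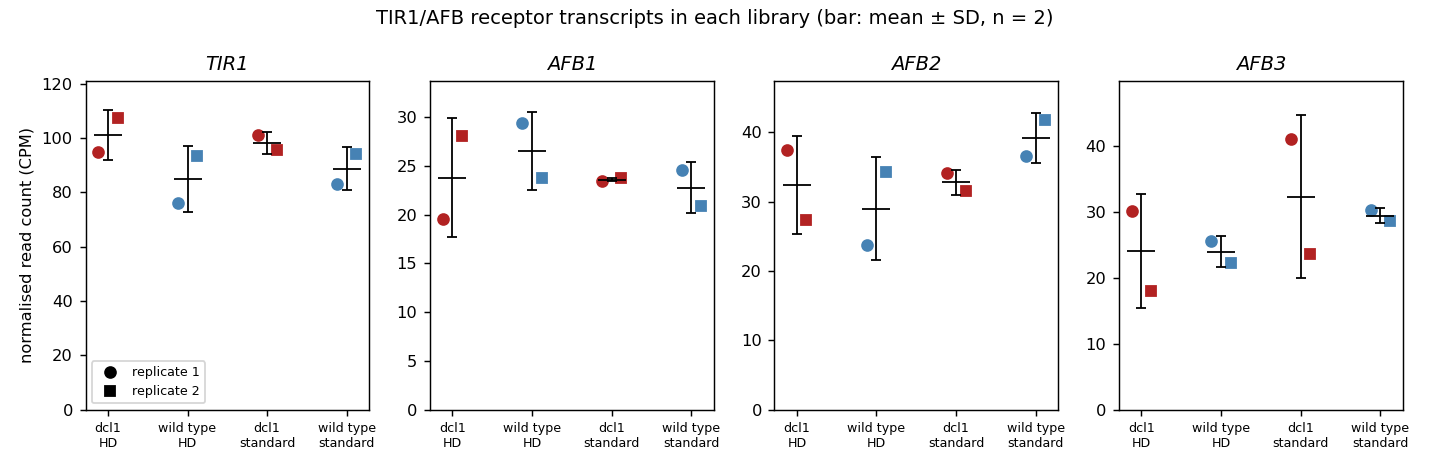
Normalised read counts (CPM, y axis from 0, scaled separately for each gene) of the 4 receptor genes in the 8 libraries, with dcl1 in red, wild type in blue, circles for replicate 1, squares for replicate 2 and black bars for mean ± SD (n = 2). TIR1 sits between 94.7 and 107.5 CPM in dcl1 and between 76.2 and 94.2 CPM in wild type, while the groups of AFB3 overlap and its dcl1 libraries are spread widest.

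The intervals bound how large a change these libraries leave room for, and they were wider within an adapter than on summed counts. Within an adapter the 95% intervals reached up to 1.604-fold (AFB3, standard adapters) and down to 0.606-fold of wild type (AFB2, standard adapters). The narrower summed-count intervals also rest on taking equal replicate numbers within a genotype as the same RNA sample. The 95% intervals of the summed-count fold reached up to 1.22-fold for AFB1, 1.25-fold for AFB2 and 1.37-fold for AFB3, and down to 0.725-fold, 0.761-fold and 0.781-fold of wild type. The median absolute log2 fold change of the 4 was 0.16 with HD adapters, 0.14 with standard adapters and 0.07 on summed counts. Over all loci tested it was 0.40, 0.39 and 0.33, a median that includes loci of low count. The sign of the fold of AFB1, AFB2 and AFB3 depended on single libraries. On summed counts AFB1 was at 0.05 without the first RNA sample of dcl1 or that of wild type. AFB2 was at 0.09 without the second RNA sample of dcl1 and at 0.13 without that of wild type. AFB3 was at -0.29 without the first RNA sample of dcl1 and at -0.02 without the second of wild type. None of these was called.

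Targets of other microRNAs in the same libraries show what a called difference looked like at this depth. AGO1, which loads microRNAs and is itself a target of miR168, had 246.1, 251.9, 230.8 and 238.2 CPM in the dcl1 libraries, against 65.0, 75.3, 73.4 and 73.5 CPM in the wild-type libraries, in each case the HD pair before the standard pair. Its log2 fold change on summed counts was 1.76 (SE 0.14, edgeR adjusted p = 6.35e-07), with a 95% interval of 1.46 to 2.07 that shares no value with that of any receptor. NF-YA2, a CCAAT-binding factor subunit gene targeted by miR169, rose by 3.55 (SE 0.21, edgeR adjusted p = 2.65e-08). The miR403 target AGO2, another ARGONAUTE gene, was at 1.76 (SE 0.17, edgeR adjusted p = 2.92e-06). Of 51 tested targets of other microRNAs, 11 rose, 2 fell and 38 did not pass the test on summed counts, with a median log2 fold change of 0.19. Of all loci, 4.3% were called higher and 4.55% lower, so the number that fell was no more than the background. With HD adapters 9 of the 51 rose and 2 fell, beside 4.33% of all loci called in either direction. With standard adapters 8 rose and 0 fell, beside 4.23%. The pair that fell on summed counts, named after their values were seen, were NAC1 (-1.19, edgeR adjusted p = 0.0013) and ORE1 (-2.87, adjusted p = 0.0026). Both are NAC transcription factor genes targeted by miR164. The list was chosen with earlier results of these libraries known. DCL1 itself, a target of miR162, was at 0.14 (SE 0.17, edgeR adjusted p = 0.701); a mutation need not lower the count of its transcript, so this does not check the labels.

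BHLH77, the other gene with a good miR393 match, was not higher in dcl1. It had 22.8 and 36.6 CPM in the dcl1 HD libraries, against 31.7 and 34.6 CPM in the wild-type HD libraries. The standard libraries gave 19.5 and 27.2 CPM in dcl1, against 31.0 and 37.6 CPM in wild type. The groups overlapped with HD adapters and did not with standard adapters, where dcl1 was the lower, as at 24.5% of all loci tested. The log2 fold change was -0.17 with HD adapters (edgeR adjusted p = 0.812). With standard adapters it was -0.55 (edgeR unadjusted p = 0.0327, adjusted p = 0.253). On summed counts it was -0.36 (SE 0.18, edgeR unadjusted p = 0.0625, adjusted p = 0.261).

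The receptors without a close miR393 match gave values of the same size. AFB4 and AFB5, which form the branch of the family that binds picloram-type auxins well, were at 0.07 and -0.06 on summed counts, and COI1 was at 0.09. Of the 3, 0 were called between dcl1 and wild type with either adapter or on summed counts by edgeR, 0 had an unadjusted p under 0.05 and 0 were called by DESeq2. Since 4.33%, 4.23% and 8.85% of all loci were called, no call among 3 genes does not stand apart. AFB5 had 56.0 and 80.3 CPM in the dcl1 HD libraries, against 67.5 and 69.1 CPM in the wild-type HD libraries. With standard adapters it had 42.5 and 54.6 CPM in dcl1, against 47.6 and 58.9 CPM in wild type. Its standard libraries were lower than its HD libraries in each RNA sample.

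**Figure D2:**
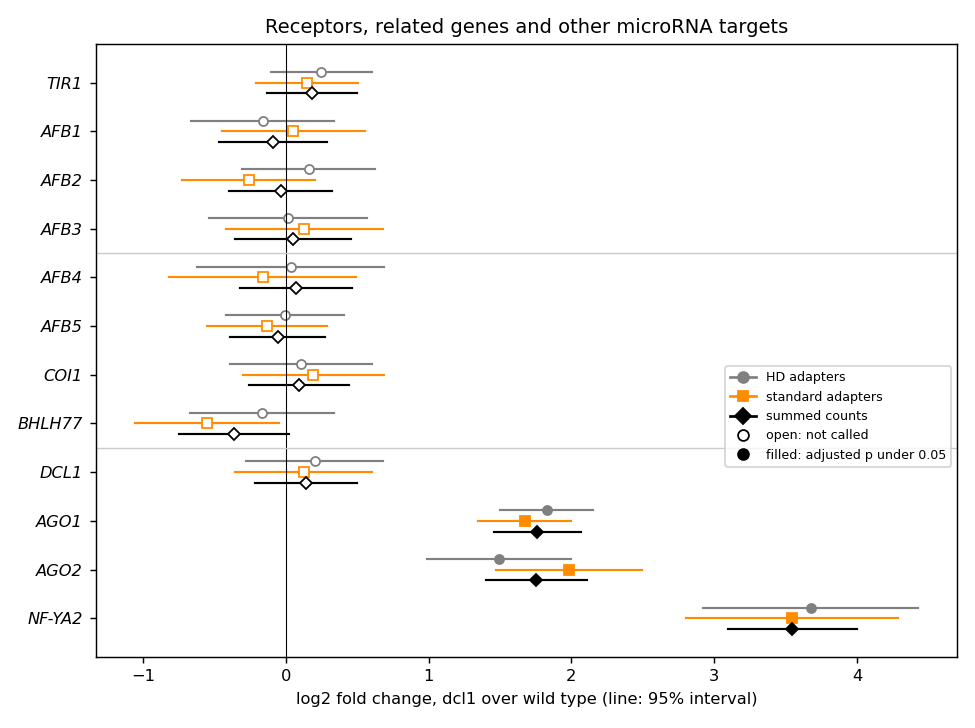
Log2 fold change of dcl1 over wild type (x axis) with 95% intervals for the receptors, their relatives, BHLH77, DCL1 and 3 targets of other microRNAs, with HD adapters (circles), standard adapters (squares) and summed counts (diamonds), filled where the edgeR adjusted p was under 0.05. All receptor symbols are open and their intervals cross 0, whereas those of AGO1, AGO2 and NF-YA2 are filled and lie to the right of 1 or, for AGO2 with HD adapters, near it.

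The choice of adapter did not give a call for a receptor either. Of all loci, 0.174% were called for HD over standard adapters in dcl1, 0.251% in wild type and 0.0256% for the interaction of genotype and adapter. The receptor count was 0 of 4 in all 3 by edgeR, 0 of 4 at an unadjusted p under 0.05 and 0 of 4 by DESeq2. The largest adapter value among them was that of AFB2 in wild type, a log2 fold change of -0.43 for HD over standard (unadjusted p = 0.0666). AFB5 had 0.48 in dcl1 (unadjusted p = 0.0251, edgeR adjusted p = 0.681).

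Levels of different genes were compared only per kilobase of exon (RPKM, the CPM divided by exon length). TIR1 was the most abundant receptor transcript of the 4 in 8 of 8 libraries, with a median of 35.7 RPKM and a range of 28.8 to 40.6 RPKM. AFB2 had a median of 12.5 RPKM (8.68 to 15.3), AFB3 of 12.1 RPKM (8.07 to 18.4) and AFB1 of 10.2 RPKM (8.40 to 12.6). The lower 3 did not differ beyond their spread: AFB2 was above AFB3 in 5 of 8 libraries and above AFB1 in 6, and AFB3 was above AFB1 in 5. TIR1 made up 45.5% to 57.4% of the summed RPKM of the 4, with AFB1 at 11.8% to 20.5%, AFB2 at 14.1% to 21.0% and AFB3 at 11.4% to 23.2%. That sum averaged 71.0 ± 0.416 RPKM in dcl1 and 64.8 ± 4.56 RPKM in wild type with HD adapters, and 73.7 ± 7.64 RPKM in dcl1 and 70.8 ± 2.66 RPKM in wild type with standard adapters (SD, n = 2 each).

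**Figure D3:**
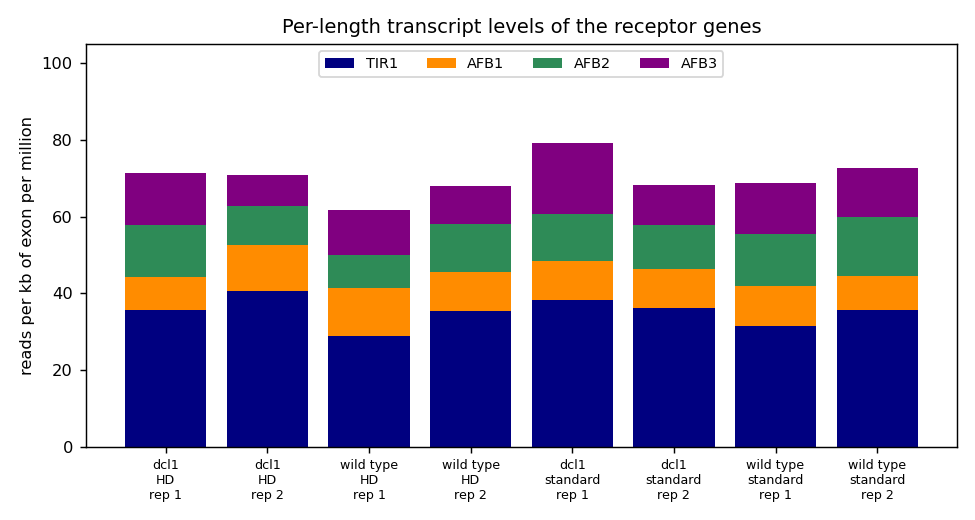
RPKM (CPM per kilobase of exon, y axis from 0) of the 4 receptor genes, stacked, in each of the 8 libraries, dcl1 before wild type within each adapter. TIR1 is the largest block in all 8 libraries, from 28.8 to 40.6 RPKM, and no stack of dcl1 stands far from those of wild type.

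None of the 4 transcripts was among the 3 loci nearest in profile to another of them across the 8 libraries. Likeness was measured as the root mean square difference in log2(CPM + 1), each gene centred on its own mean, over the other 19520 tested loci. The loci nearest to TIR1 were BIG (0.039), MAP65-8 (0.049) and FRO8 (0.053). Those nearest to AFB1 were AAE3, AT4G30490 and AT5G19940 (0.082 to 0.089). For AFB2 they were PDF2 (AT3G22480), AT5G19090 and FZF (0.071 to 0.096), and for AFB3 AT5G19680, EMB2785 and SPPA (0.071 to 0.116). Among the receptors, the one nearest to TIR1 was AFB2, at 0.246, which ranked 3569th. The rank depended on the side: from AFB2, TIR1 ranked 1311th, and from AFB3, AFB2 ranked 1535th. All other ranks among the receptors lay between 3159 and 11454. The 8 libraries come from 4 RNA samples, so these distances describe the libraries and carry no test.

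Downstream of the receptors, several genes of the auxin-induced list were lower in dcl1, while Aux/IAA genes, listed apart, went both ways. The SCF, RUB and TOPLESS genes that work with the receptors gave no edgeR call on summed counts. GH3.6 had 1.2, 0.5, 5.1 and 0.2 CPM in the dcl1 libraries, against 7.7, 12.5, 13.2 and 9.1 CPM in the wild-type libraries, HD pair before standard pair. GH3.3 had 1.7, 1.3, 0.8 and 0.7 CPM in dcl1, against 5.3, 7.4, 5.5 and 5.8 CPM in wild type. Both genes code for enzymes that join auxin to amino acids. HAT2, a homeodomain transcription factor gene induced by auxin, had 8.2, 9.6, 7.0 and 8.4 CPM in dcl1, against 17.0, 17.4, 16.2 and 17.5 CPM in wild type. The log2 fold changes on summed counts were -2.98 for GH3.6 (SE 0.54, edgeR adjusted p = 0.00173), -2.32 for GH3.3 (SE 0.42, adjusted p = 0.00175) and -1.02 for HAT2 (SE 0.21, adjusted p = 0.0051). By DESeq2 the call of GH3.6 was lost, at -3.02 (adjusted p = 0.0923). Without the first RNA sample of dcl1, the higher of that genotype, GH3.6 was at -5.10 by edgeR, and without the second it was at -2.20; both values passed the test.

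Of 18 auxin-induced genes listed, 13 could be tested, 0 rose, 3 fell and 10 did not pass the test on summed counts. This list leaves out the Aux/IAA genes, of which 3 rose and 2 fell among 22 tested, as given below. The median log2 fold change of the 13 was -1.02, against 0.01 over all loci, and 11 of 13 values were negative. The share of all loci called lower was 4.55% on summed counts. With HD adapters GH3.6 was the 1 of the 13 that fell, beside 2.26% of all loci. With standard adapters 4 fell, beside 2.36% of all loci: GH3.3, HAT2 and, named after their values were seen, EXPA8 (-0.93, edgeR adjusted p = 0.0216) and SAUR63 (-1.10, adjusted p = 0.0427), an expansin and a small auxin-up RNA gene. With HD adapters EXPA8 was at -0.17 and SAUR63 at -0.10. The interaction of genotype and adapter was called for 0 of the 13 by edgeR and by DESeq2, and 3 of the 13 had an unadjusted p under 0.05, among them EXPA8 and SAUR63. AUX1, the auxin influx carrier, had 35.2, 45.6, 34.4 and 25.1 CPM in dcl1, against 61.6, 64.9, 44.3 and 46.1 CPM in wild type. It fell by 0.68 on the log2 scale on summed counts (SE 0.15, edgeR adjusted p = 0.0089). This was the 1 edgeR call among 17 tested genes of auxin synthesis and transport, beside 4.55% of all loci called lower. Within an adapter AUX1 was not called, at -0.65 with HD adapters (edgeR adjusted p = 0.0742) and -0.61 with standard adapters (adjusted p = 0.102). DESeq2 called 2 genes of that list and 4 auxin-induced genes on summed counts, with no DESeq2 share of all loci beside them. Without the second RNA sample of dcl1 it was at -0.62 (adjusted p = 0.0617). Both lists were chosen with earlier results known.

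Among the Aux/IAA repressors, the proteins that the receptors bind, 22 of 29 could be tested, and on summed counts 3 rose, 2 fell and 17 did not pass the test, beside 4.3% of all loci called higher and 4.55% lower. With HD adapters 2 rose (IAA1 and IAA14) and 2 fell (IAA29 and IAA7), and with standard adapters 1 rose (IAA14) and 0 fell, beside 4.33% and 4.23% of all loci called in either direction. DESeq2 called 5 on summed counts, 4 with HD and 3 with standard adapters. The shares of all loci in this paragraph are those of edgeR, so these DESeq2 counts have no matching share beside them. IAA14 rose by 1.19 (edgeR adjusted p = 0.00366) and IAA1 by 1.05 (adjusted p = 0.00564) on the log2 scale. IAA29 fell by 2.30 (edgeR adjusted p = 0.00203), to 2.23 and 0.884 CPM in the summed dcl1 samples, against 6.27 and 9.21 CPM in those of wild type. IAA29 was at -3.09 with HD adapters (edgeR adjusted p = 0.0157) and at -1.60 with standard adapters (adjusted p = 0.246), and on summed counts it was at -3.13 without the first RNA sample of dcl1 and at -1.80 without the second. The other two calls, named after their values were seen, were IAA4 (0.62, edgeR adjusted p = 0.0255) and IAA7 (-0.64, adjusted p = 0.00914). Without the second RNA sample of dcl1 the number of Aux/IAA calls was 3, with IAA4 at 0.41 (adjusted p = 0.307) and IAA7 at -0.61 (adjusted p = 0.0603).

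Of 14 genes of the SCF ligase and of the RUB conjugation that keeps it active, 0 were called on summed counts by edgeR, 4 had an unadjusted p under 0.05 and 1 was called by DESeq2. With 8.85% of all loci called by edgeR on summed counts, an edgeR count of 0 does not set this list or the next ones apart. The counts by DESeq2 and at an unadjusted p have no matching share of all loci beside them. On summed counts, an unadjusted edgeR p under 0.05 was also found for 9 of 13 auxin-induced genes and 7 of 22 Aux/IAA genes. It was found for 2 of 17 genes of auxin synthesis and transport and 27 of 51 targets of other microRNAs. The smallest p-values in this list belonged to ASK2, an SKP1-like adaptor, at -0.46 (edgeR adjusted p = 0.0626), and SGT1B, a co-chaperone of the ligase, at -0.40 (adjusted p = 0.114). ASK2 was the gene called by DESeq2, at -0.47 (adjusted p = 0.0250). With HD adapters alone SGT1B was called, at -0.68 (edgeR adjusted p = 0.0345), 1 of 14 genes beside 4.33% of all loci. Of 15 AUXIN RESPONSE FACTORs 0 were called by edgeR, 3 had an unadjusted p under 0.05 and 1 was called by DESeq2. ARF17, a target of miR160, was at 0.72 (edgeR adjusted p = 0.0504), and ARF3, a target of trans-acting small interfering RNAs, was at 0.64 (adjusted p = 0.0722). ARF17 was the gene called by DESeq2, at 0.71 (adjusted p = 0.0432). ARF3 passed without the second RNA sample of dcl1 (0.72, edgeR adjusted p = 0.0369) and without the first of wild type (0.98, adjusted p = 0.00154), and was at 0.34 (adjusted p = 0.455) without the second of wild type. Of 5 genes of the TOPLESS co-repressors, which Aux/IAA proteins recruit, 0 were called by edgeR, 1 had an unadjusted p under 0.05 and 0 were called by DESeq2. TPL was at -0.34 (edgeR adjusted p = 0.183) and TPR1 at 0.36 (adjusted p = 0.239).

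**Figure D4:**
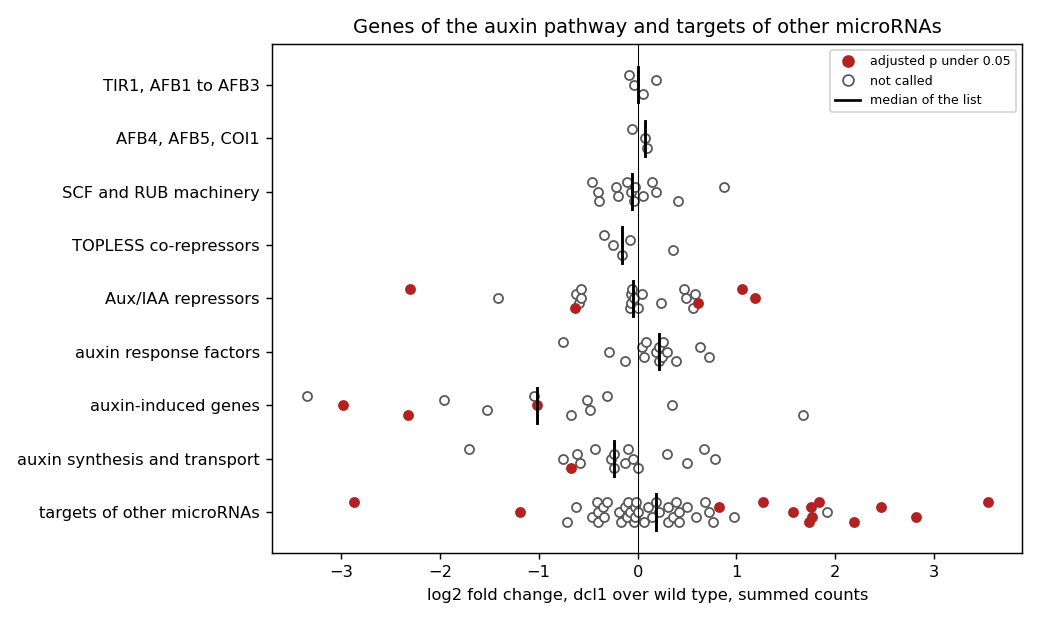
Log2 fold change of dcl1 over wild type on summed counts (x axis) for each tested gene of the receptor set, the auxin pathway lists and the targets of other microRNAs, filled red where the edgeR adjusted p was under 0.05, with a black line at the median of each list. The 4 receptors lie close to 0, 3 of 13 auxin-induced genes are called and all of these are lower in dcl1, and 11 of 51 other targets are called higher.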

How the data were processed

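The deposited files hold the authors' read counts per locus, whole numbers without a header, on build TAIR10 per the submitters' processing notes. Aligner, counting tool and strand setting: not given in the sources used here. Loci absent from a file were set to 0. Identifiers, positions, transcripts and microRNAs came from RefSeq on TAIR10.1, which 22444 of the 22546 loci matched.

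Counts were tested with edgeR 4.0.16 in R 4.3.3 (filterByExpr, TMM, quasi-likelihood F test, two-sided), with Benjamini-Hochberg adjustment across the loci tested in each contrast. One mean per group was fitted to the 8 libraries (19521 loci tested), and genotype was also fitted to 4 sums, each over both libraries of 1 RNA sample (19711 loci). That sum takes equal replicate numbers within a genotype as the same RNA sample, on the series' statement that both kinds of library came from the same RNA. The deviations of same-numbered libraries correlated at 0.047 in dcl1 and 0.130 in wild type. The SE is the absolute log2 fold change over the square root of F. DESeq2 1.42.0 and the settings named in the closing section were alternatives. The shares of all loci given beside counts of called genes are those of edgeR at the adjusted p. The scripts were tested on simulated data.

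Named beside the receptors were their relatives, the miR393 loci, BHLH77, AGO1 and DCL1, the called genes of smallest p in each list (up to 3, or 2 uncalled ones where none was called) and the 3 loci nearest to each receptor in profile. The receptors and the lists were chosen with earlier results of these data known.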

Additional observations from a re-analysis of the deposited data

How the results depend on the processing

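Alternative fits of dcl1 against wild type by edgeR or DESeq2 gave 132 log2 fold changes for the 4 receptors together. None of these values was called, and 117 of them kept the direction. The 15 reversals were of AFB1, AFB2 and AFB3. Leaving out 1 library at a time gave log2 folds of -0.43 to 0.093 for AFB1, -0.078 to 0.45 for AFB2 and -0.40 to 0.34 for AFB3 with HD adapters. With standard adapters they were -0.059 to 0.18 for AFB1 and -0.32 to 0.48 for AFB3. On summed counts they were -0.24 to 0.052 for AFB1, -0.19 to 0.13 for AFB2, -0.29 to 0.32 for AFB3, -0.029 to 0.17 for AFB4, -0.21 to 0.080 for AFB5 and -0.12 to 0.040 for CPL3. For HD over standard adapters they were -0.058 to 0.13 (TIR1), -0.28 to 0.25 (AFB1), -0.26 to 0.19 (AFB2) and -0.84 to 0.041 (AFB3) in dcl1, and -0.22 to 0.062 (TIR1) in wild type. For the interaction they were -0.024 to 0.26 (TIR1), -0.50 to 0.029 (AFB1) and -0.54 to 0.35 (AFB3). With the 8 libraries fitted by genotype and adapter terms, AFB4 was at -0.064 and CPL3 at 0.069.

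Between genotypes, the deviations of same-numbered libraries correlated at -0.010 to 0.002. Within a genotype they correlated at only 0.047 in dcl1 and 0.130 in wild type, so this measure cannot settle which libraries share a source. With the replicate number as a block, AFB3 with HD adapters was at -0.031 and no receptor was called. With the RNA sample as a block, chosen after seeing the data, AFB1 for HD over standard adapters in dcl1 was at -0.012, and the loci called over the genome for the adapter contrast numbered 275 in dcl1 and 185 in wild type, and 36 for the interaction, against 34, 49 and 5. No receptor was among them. On summed counts ARF17 (adjusted p = 0.0382) and ARF3 (adjusted p = 0.0164) passed with the replicate block in edgeR.

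The number of loci called with HD adapters was 1332 with no filter on low counts, against 846, and 461 to 833 when 1 library was left out, lowest without the second dcl1 library. With standard adapters it was 1241 by DESeq2, against 826, and 418 to 685 when 1 library was left out, lowest without the second wild-type library and at 465 without the first dcl1 library. For the adapter contrast it was 73 by DESeq2 and 88 with no filter in dcl1 (20 without the second HD library to 67 without the first) and 84 with no filter in wild type. For the interaction it was 3 with RLE size factors and 16 with no filter (3 without the first wild-type HD library to 13 without the second dcl1 HD library). The Aux/IAA calls numbered 3 to 6 when 1 RNA sample was left out. The cause was not tested.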

Other observations

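The protein-coding loci that came next after the 4 receptors and BHLH77 in the search for the miR393 pairing were CPL3 (AT2G33540), PRN (AT3G59220) and AT4G18596, each at a penalty of 4.0. They were singled out after the search was seen. CPL3, which codes for a phosphatase of the RNA polymerase II tail, was at a log2 fold change of -0.04 in dcl1 over wild type on summed counts (SE 0.19, edgeR adjusted p = 0.948), so it was not called.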
